A study of Mus musculus with 18 samples.

Results

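The genes described are 47 interferon-stimulated genes, the genes whose transcription interferons raise, followed across cultured mouse cortical astrocytes in which a designer receptor was stimulated. The 47 were given as a list of mouse symbols and matched through Entrez identifiers. All 47 of the 22078 genes counted were found and passed the filter on low counts in every comparison. Cells carried a plasmid for 1 of 3 muscarinic designer receptors, hM4Di, hM3Dq or rM3Ds, or for a fluorescent control protein. All 6 groups, controls included, were given deschloroclozapine (DCZ), the ligand of these receptors, at 8 µM for 90 min, beginning 7 days after the plasmid was introduced with the lipid reagent HilyMax. RNA was taken directly from cells with hM4Di, hM3Dq, rM3Ds or EGFP, or after 3 days in medium without ligand from cells with hM3Dq or mCherry, with 3 libraries in each group. Cells that carry a receptor but were not given DCZ are not among the groups, so the ligand's action and the receptor's presence cannot be told apart. The promoter that drives the receptor and the share of cells that carried it are not given in the sources used here. The labels name no strain or age, and they do not say that the 3 libraries of a group are separate cultures, so the spread behind each p-value is that of these libraries and may be technical. The receptor hM4Di couples to the inhibitory G protein Gi, hM3Dq to Gq and rM3Ds to Gs.

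Interferons bind receptors at the cell surface and switch on kinases of the JAK family, which activate STAT proteins. Type I interferons act through a complex of STAT proteins with Irf9 that binds the interferon-stimulated response element (ISRE), and interferon gamma acts through a STAT dimer that binds the gamma-activated site (GAS). The products of the target genes block the copying, translation and release of viruses, sense foreign nucleic acids, or feed back on the pathway, and astrocytes are among the cells of the brain that respond to interferon.

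RefSeq promoters, which run from 250 bases before to 50 bases after the start of a gene on GRCm38.p6, were at hand for 35 of the 47 genes. The ISRE core, searched on either strand as TTTC, 2 bases of any kind and TTTC, was in the promoter of 17 of the 35 (48.6%), against 3.75% of the 10757 genes tested at 90 min that have a promoter and 3.99% of all 27025 genes with one. The GAS core, searched as TTCNNNGAA, was in 11 of the 35 (31.4%), against 8.2% and 9.55%. In Bst2 a GAS match overlapped an ISRE match, and in Tgtp1 and Igtp a GAS match ended just upstream of an ISRE match. A match describes the letters and does not show that a factor binds there. Stretches of 80 bases upstream of the start are shown for Bst2 and Tgtp1, which had 2 of the smallest p-values for hM4Di, and for Ifit3 and Isg15, which were added after their values were seen because they are widely used markers of an interferon response. Each is written 5′ to 3′ on the strand of its gene, with ISRE core matches in capitals. On GRCm38.p6 they are Bst2 on the minus strand at chr8:71537552-71537631, Tgtp1 on the minus strand at chr11:48992279-48992358, Ifit3 on the plus strand at chr19:34583372-34583451 and Isg15 on the minus strand at chr4:156200840-156200919.
Bst2: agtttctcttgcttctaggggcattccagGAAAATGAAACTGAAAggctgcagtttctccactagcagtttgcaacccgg
Tgtp1: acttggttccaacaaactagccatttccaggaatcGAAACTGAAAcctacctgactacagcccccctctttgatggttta
Ifit3: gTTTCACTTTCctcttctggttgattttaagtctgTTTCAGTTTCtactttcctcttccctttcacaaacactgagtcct
Isg15: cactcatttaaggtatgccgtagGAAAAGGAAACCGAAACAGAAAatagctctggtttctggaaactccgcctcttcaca
The promoter of Isg15 held 3 overlapping copies of the core, that of Bst2 held 2 overlapping copies, that of Ifit3 held 2 separate copies and that of Tgtp1 held 1. The ISRE core was also found with Ifit1, Ifit3b, Oas1a, Gbp2, Gbp3, Gbp7, Igtp, Irgm1, Rsad2, Stat2, Trim30a, Ifih1 and Eif2ak2, in the last 2 only after the start. The promoters at hand for Irf7 and Plscr1 held no ISRE core, and that of Plscr1 held a GAS core.

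The totals were 16.1 to 25.2 M counts for the 12 libraries at 90 min, and for the 6 at 3 days 16.6 to 19.7 M. Levels are given as CPM, the counts of a gene scaled to 1 M counts of the library total, and 3 counts correspond to 0.119 to 0.187 CPM. They are compared for 1 gene across libraries, not between genes, since they are not divided by transcript length. The astrocyte genes Aldh1l1, Aqp4, Slc1a3, Slc1a2 and Sox9 were present in all 18 libraries, while Gfap was low, at 1.70 to 22.7 CPM. A set of 6 genes of fibroblasts and mural cells summed to 1384 to 2636 CPM. The microglia and macrophage genes Cx3cr1, P2ry12, Aif1, C1qa, Itgam and Ptprc stayed at or below 0.33 CPM in all 18 libraries. In bulk RNA fewer cells of a type and less RNA per cell cannot be told apart. At 90 min EGFP 1, rM3Ds 2 and rM3Ds 3 stood apart in genes of the cell cycle and across genes at large. Of 12645 genes, 5.07% in EGFP 1, 4.32% in rM3Ds 2 and 4.45% in rM3Ds 3 were at least 2-fold above their 90 min median. The shares at least 2-fold below it were 3.02%, 1.71% and 1.83% in that order. Library hM4Di 1 stood apart in the interferon-stimulated genes themselves, as described below. At 3 days mCherry 3 stood apart across genes at large, with 3.60% of 12310 genes at least 2-fold below their median over the 3-day libraries. Of the 47, 2 were at least 2-fold below there and 0 at least 2-fold above.

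In cells with hM4Di most interferon-stimulated genes lay above the EGFP control at 90 min, and most of that height came from 1 library. No single gene passed the test. Library hM4Di 1 was the highest of the 12 libraries at 90 min for 44 of the 47 genes. Each gene was set against its median over the 12 libraries, for the 46 of the 47 with a mean of at least 1 CPM over them. Library hM4Di 1 then had a median of 1.05 on the log2 scale. In it 25 of the 46 were at least 2-fold above, against 1.55% of the 12645 genes kept by the same rule. The same median was 0.22 in hM4Di 2 and 0.25 in hM4Di 3, where 43 and 39 of 46 were above. It lay between -0.04 and 0.05 in the hM3Dq and EGFP libraries, and at -0.17, -0.26 and -0.24 in rM3Ds 1, 2 and 3.

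**Figure D1:**
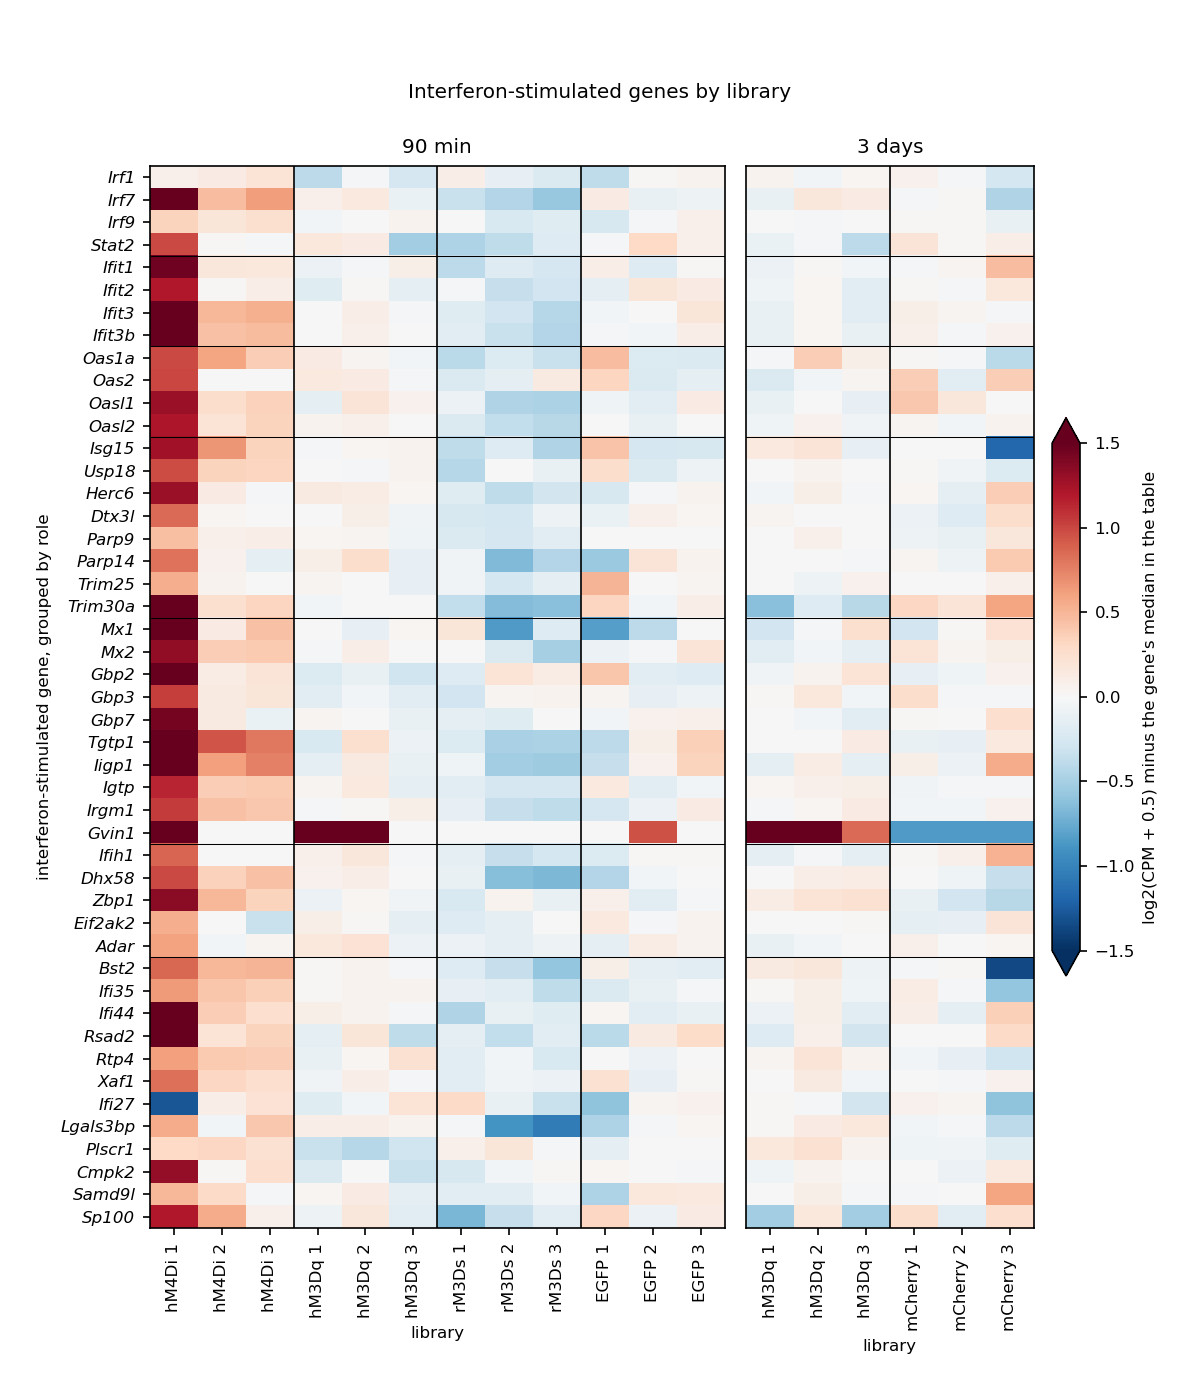
The 47 interferon-stimulated genes (vertical, grouped by role) in 18 libraries (horizontal), as log2(CPM + 0.5) minus the gene's median over the libraries of its table, with colours saturated at -1.5 and 1.5. Column hM4Di 1 is red for nearly all genes, hM4Di 2 and 3 are paler red for many, the rM3Ds columns are mostly pale blue, and at 3 days mCherry 3 holds both the deepest blues, Isg15 and Bst2, and many reds.

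Among the transcription factors, Irf7, which drives the production of type I interferon, stood at 571, 226 and 252 CPM in hM4Di 1, 2 and 3. It stood at 178, 152 and 156 CPM with EGFP, 172, 181 and 152 CPM with hM3Dq and 130, 121 and 110 CPM with rM3Ds. All 3 hM4Di libraries were above all 9 others, and all 3 rM3Ds libraries were below. Irf9, the DNA-binding subunit of the type I complex, moved less, at 202, 181 and 189 CPM with hM4Di and 135, 158 and 168 CPM with EGFP. Stat2, its partner, was high in hM4Di 1 alone, at 60.2 CPM against 30.3 and 29.4 CPM in the other hM4Di libraries and 29.6 to 37.0 CPM with EGFP. Irf1, a factor induced by interferon gamma, lay at 41.2 to 45.3 CPM with hM4Di and 29.8 to 40.7 CPM with EGFP, with hM4Di 1 the lowest of the 3.

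The Ifit proteins bind foreign RNA and block its translation. Ifit3 stood at 2085, 1024 and 1051 CPM with hM4Di and at 703, 722 and 819 CPM with EGFP. Ifit1 stood at 1554, 632 and 629 CPM against 603, 493 and 572 CPM. The groups did not overlap for Ifit1, Ifit3 and Ifit3b, but for Ifit1 hM4Di 2 and 3 were barely above EGFP 1. Ifit2 overlapped, with 250, 110 and 116 CPM against 97.4, 123 and 118 CPM. Ifit3 and Ifit3b are near-identical copies, so how their reads were shared is uncertain. Among the Oas genes, some of whose products make the oligoadenylate that activates RNase L, Oasl2 did not overlap (808, 401 and 439 CPM against 345, 321 and 347 CPM). Oasl1, which holds back the translation of Irf7, was low but also did not overlap, at 9.71, 4.49 and 4.79 CPM against 3.48, 3.23 and 4.02 CPM. Oas2 was at 47.9 CPM in hM4Di 1 and at 23.5 and 23.7 CPM in the others, within the EGFP range of 20.3 to 29.7 CPM. Oas1a, which has close copies, overlapped through EGFP 1.

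Isg15, the ubiquitin-like protein that is joined to other proteins, stood at 351, 232 and 185 CPM with hM4Di and at 198, 123 and 124 CPM with EGFP. Here EGFP 1 lay above hM4Di 3, so the groups overlapped. Usp18, which removes Isg15 and damps signalling at the receptor, stood at 306, 195 and 194 CPM against 185, 133 and 147 CPM, with no overlap. For Herc6, the Isg15 ligase of the mouse, hM4Di 1 had 208 CPM, while hM4Di 2 and 3, at 91.9 and 82.7 CPM, were at the level of EGFP (71.8 to 87.8 CPM). The same held for Dtx3l, a ubiquitin ligase that works with Parp9, at 172, 97.3 and 95.3 CPM against 88.5 to 100 CPM. Trim25, a ubiquitin ligase of RNA sensing, was not set apart, with 117, 83.5 and 80.4 CPM against 114, 80.01 and 82.6 CPM.

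For 7 of the 10 GTPases all hM4Di libraries lay above all EGFP libraries, against 4.34% of all genes. Tgtp1, one of the immunity-related GTPases that attack the vacuoles of intracellular parasites, stood at 221, 132 and 119 CPM with hM4Di and at 52.1, 72.8 and 88.1 CPM with EGFP. Iigp1 of the same family stood at 147, 51.6 and 57.2 CPM against 26.2, 35.2 and 42.5 CPM, and Irgm1, its regulator, at 850, 557 and 545 CPM against 346, 388 and 449 CPM. Every hM4Di library lay above every EGFP library in all 3. Gbp2, a guanylate-binding protein, reached 154 CPM in hM4Di 1 and lay between 42.4 and 69.8 CPM in the other 11 libraries. Mx2, a dynamin-like antiviral GTPase, did not overlap, at 121, 61.4 and 62.5 CPM against 44.9, 46.6 and 54.4 CPM. Mx1 was low throughout, at 7.03, 1.36 and 1.82 CPM against 0.46, 0.81 and 1.22 CPM. Tgtp1, the Gbp genes and Gvin1 belong to families with close copies, and their counts are uncertain to that extent.

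Of the sensors, Dhx58, a regulator of RNA sensing, stood at 98.0, 62.5 and 66.9 CPM with hM4Di and 36.2, 47.8 and 49.4 CPM with EGFP. Zbp1, a sensor of Z-form nucleic acids, stood at 117, 64.5 and 57.5 CPM against 48.2, 40.8 and 44.5 CPM, and neither overlapped. Ifih1, the sensor MDA5, was at 258 CPM in hM4Di 1 and at 142 and 140 CPM in hM4Di 2 and 3, inside the EGFP range of 122 to 142 CPM. Eif2ak2, the kinase PKR that stops translation, stood at 265, 183 and 144 CPM against 202, 180 and 190 CPM, so hM4Di 3 was below every control.

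Among the other effectors, Bst2, which tethers budding viruses to the membrane, stood at 1244, 965 and 973 CPM with hM4Di and at 728, 622 and 615 CPM with EGFP. All 3 hM4Di libraries were above all 3 EGFP libraries, with hM4Di 1 the farthest. Ifi35 also did not overlap, at 122, 105 and 100 CPM against 67.3, 72.6 and 77.6 CPM, nor did Rtp4, a receptor chaperone, at 217, 186 and 183 CPM against 142, 133 and 142 CPM. Rsad2, the antiviral enzyme viperin, was instead high in hM4Di 1 with 106 CPM, while 35.7 and 39.3 CPM in the others lay beside 23.3 to 37.7 CPM with EGFP. Ifi27 went the other way, with 80.8 CPM in hM4Di 1, the lowest of the 12 libraries, and 212 and 230 CPM in hM4Di 2 and 3. Plscr1, a phospholipid scramblase, was level within hM4Di, at 31.5, 31.8 and 29.8 CPM.

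**Figure D2:**
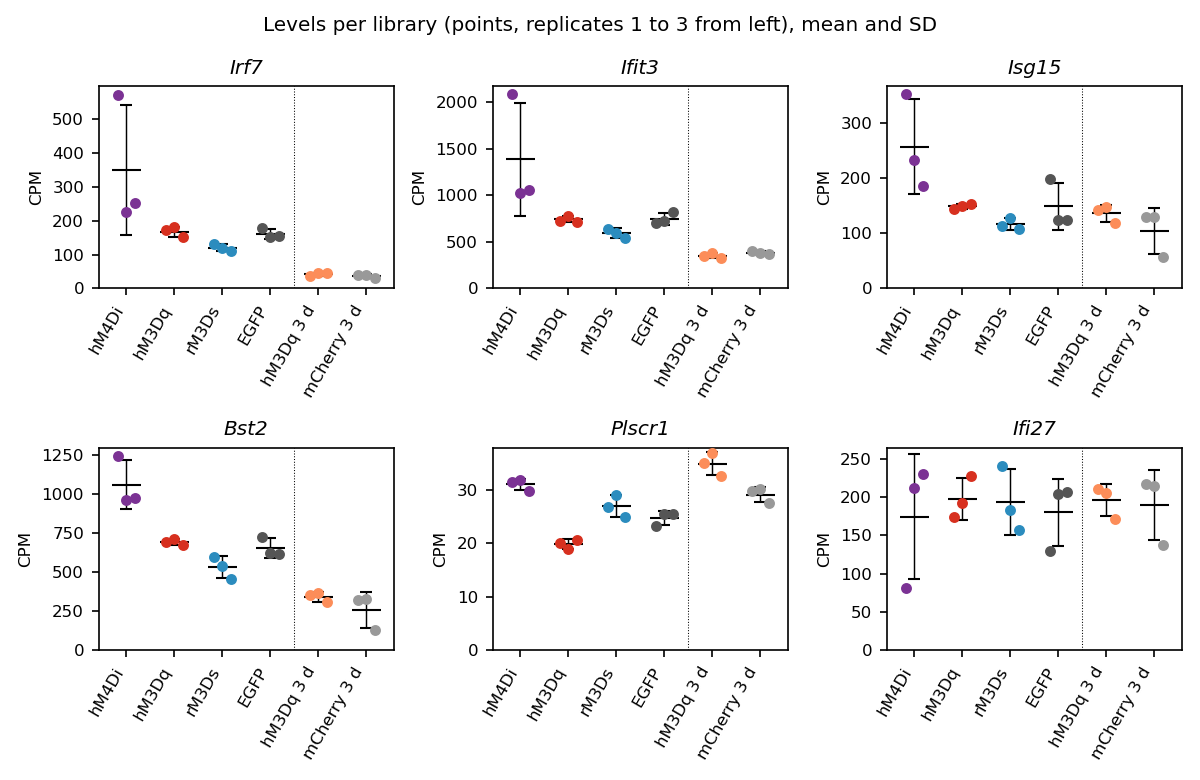
CPM (vertical, from 0) of 6 genes in each library of the 6 groups (horizontal), with bars for the mean and SD of 3 libraries. For Irf7, Ifit3 and Isg15 hM4Di 1 lies far above every other point, for Bst2 all 3 hM4Di points lie above the rest, for Plscr1 the 3 hM3Dq points at 90 min are the lowest, and for Ifi27 hM4Di 1 is the lowest.

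In the test across all genes, edgeR called no gene between hM4Di and EGFP, which is 0% of 13584, and so 0 of the 47. At an unadjusted p under 0.05, 29 of the 47 were higher and 0 lower, against 2.32% of all genes higher and 3.17% lower. All 3 hM4Di libraries lay above all 3 EGFP libraries for 25 of the 47, against 4.34% of all genes, and below them for 0, against 4.01%. The log2 fold change was above 0 for 46 of the 47, against 47.9% of all genes, with a median of 0.62 against -0.01. Median log2 fold changes by role were 0.81 for the 4 Ifit genes, 0.73 for the 10 GTPases, 0.65 for the 4 Oas genes, 0.52 for the 12 other effectors, 0.46 for the 8 genes of the ubiquitin-like system, 0.40 for the 5 sensors and RNA enzymes and 0.29 for the 4 transcription factors. The 6 smallest p-values belonged to Ifi35, with a log2 fold change of 0.57 ± 0.10 (SE, n = 3 libraries per group, edgeR adjusted p = 0.515), Bst2 with 0.68 ± 0.14 (0.774), Tgtp1 with 1.14 ± 0.25 (0.774), Rtp4 with 0.47 ± 0.11 (0.774), Irgm1 with 0.71 ± 0.17 (0.795) and Dhx58 with 0.76 ± 0.20 (0.801), the adjusted p in brackets. DESeq2 called 19 genes, 0.19% of those it adjusted, and 5 of these were Ifi35, Bst2, Tgtp1, Rtp4 and Irgm1.

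Without hM4Di 1 the median of the 47 log2 fold changes fell to 0.23, and 37 of the 47 were above 0, against 45.9% of all genes. At an unadjusted p under 0.05, 18 were higher and 0 lower, against 5.71% of all genes higher and 8.79% lower, and edgeR again called 0 genes (0%), the smallest adjusted p among the 47 being 0.285. Fold changes on the log2 scale that stayed near their size were those of Ifi35 (0.46 ± 0.09), Bst2 (0.53 ± 0.13), Rtp4 (0.37 ± 0.09), Plscr1 (0.28 ± 0.09) and Irf9 (0.23 ± 0.10). Those of Ifit1 (0.14 ± 0.11), Rsad2 (0.21 ± 0.21), Trim30a (0.11 ± 0.12) and Gbp2 (0.07 ± 0.19) came close to 0 relative to their error. By role, the medians without hM4Di 1 were 0.34 for the GTPases, 0.31 for the Oas genes, 0.27 for the Ifit genes and for the other effectors, 0.23 for the transcription factors, 0.06 for the ubiquitin-like system and 0.02 for the sensors and RNA enzymes. With all libraries the median was 0.71 over the 17 genes with an ISRE core and 0.46 over the 18 without, and both medians were 0.21 without hM4Di 1. For the GAS core the order was the other way, with 0.57 over 11 genes with it and 0.67 over 24 without, and 0.28 and 0.19 without hM4Di 1. These differences were not tested.

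**Figure D3:**
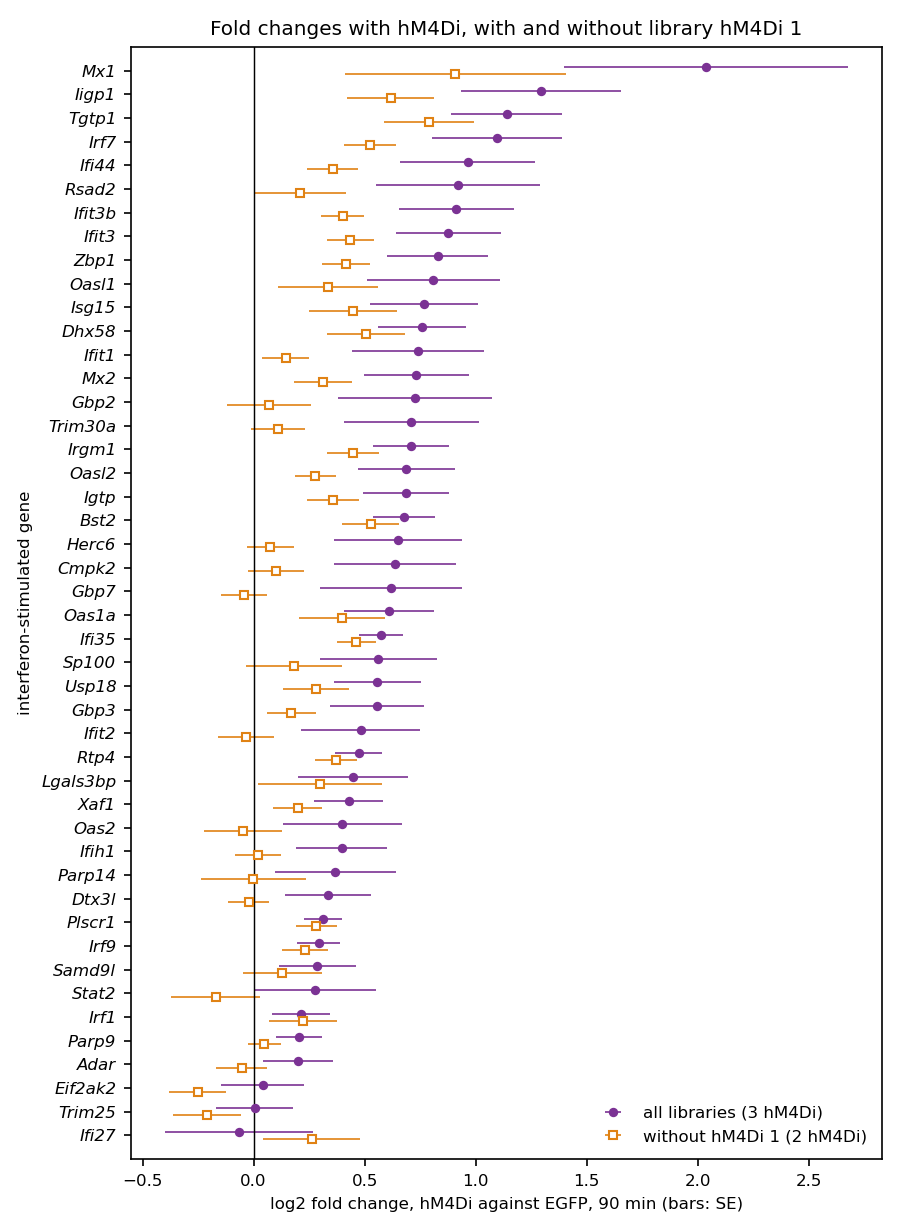
Log2 fold change between hM4Di and EGFP at 90 min (horizontal, bars for the SE) for 46 of the 47 genes (vertical), with all libraries (filled circles) and without hM4Di 1 (open squares); Gvin1, with counts at or near 0, is not drawn. Nearly all open squares lie to the left of their circles, with a median of 0.23 against 0.62, while Ifi35, Bst2, Rtp4, Plscr1 and Irf9 move little.

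Within the hM4Di group, hM4Di 1 lay above the mean of hM4Di 2 and 3 for 45 of the 47 genes, with a median log2 ratio of 0.86 against -0.02 over 12593 genes. It was at least 2-fold above for 17 of the 47, against 2.30% of genes, and at least 2-fold below for Ifi27 alone, against 1.14%. Other genes moved in hM4Di 1 as well. Gfap stood at 16.4 CPM there and at 1.94 and 3.46 CPM in hM4Di 2 and 3, and the neuronal gene Stmn2 at 17.2 CPM against 2.07 and 2.09 CPM. Neither was particular to hM4Di 1. In EGFP 1, rM3Ds 2 and rM3Ds 3 Gfap stood at 22.7, 10.3 and 9.55 CPM and Stmn2 at 45.9, 50.9 and 42.4 CPM. The interferon-stimulated genes were not raised in those libraries, with medians of -0.03, -0.26 and -0.24 relative to the 12 libraries. The summed 6 neuronal genes ranged from 103 to 191 CPM with hM4Di and from 140.3 to 207 CPM with EGFP, and the summed 8 cell cycle genes from 42.9 to 120 CPM and from 36.9 to 359 CPM. The ratio of hM4Di 1 to hM4Di 2 and 3 also ran with transcript length, with a Spearman correlation across genes of 0.47 over 46 of the 47 and 0.39 over 12399 genes. For hM4Di 2 and 3 against EGFP 2 and 3 the sign was the opposite, at -0.66 over 45 of the 47 and -0.51 over 12348 genes, so the shorter transcripts, among them Isg15, Bst2 and Tgtp1, held the larger ratios. Genes share libraries and are not independent, so these correlations are descriptions. The part of length, of other cell types and of the cell cycle in the height of hM4Di was not tested.

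**Figure D4:**
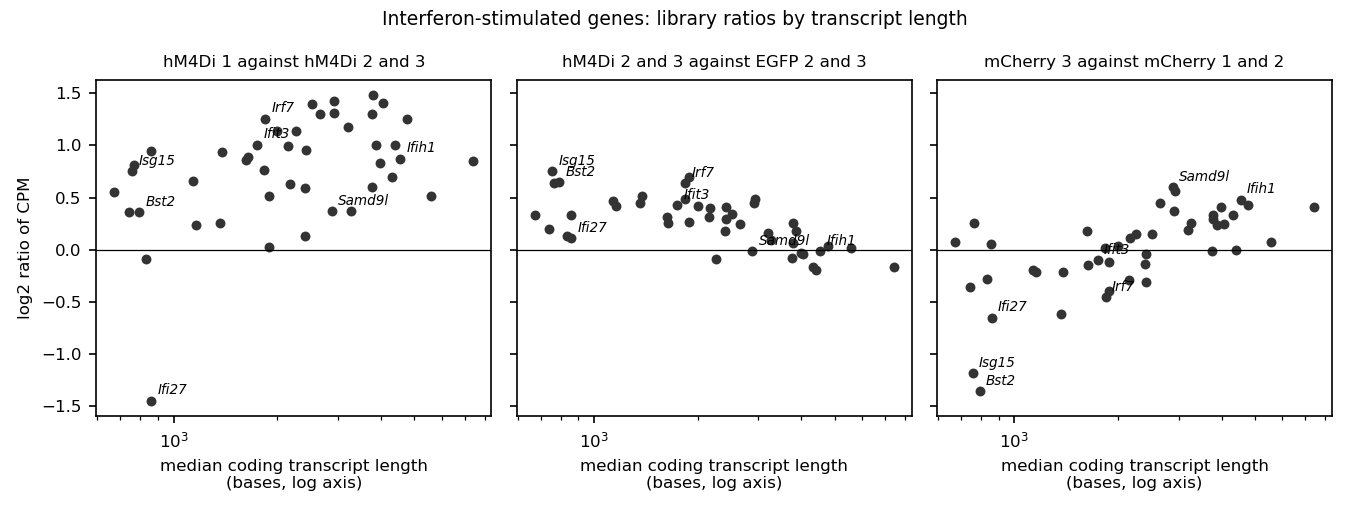
Log2 ratio of CPM (vertical) against the median length of a gene's coding transcripts (horizontal, log axis) for the interferon-stimulated genes with a length, without Gvin1, in 3 library contrasts. Points rise to the right for hM4Di 1 and for mCherry 3 and fall to the right for hM4Di 2 and 3 against EGFP 2 and 3.

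The upstream part of the pathway was followed with lists that hold none of the 47. The 11 interferon genes listed summed to 0.28 to 0.48 CPM in the hM4Di libraries and 0.23 to 0.52 CPM in the EGFP libraries. The highest level of any of the 11 in any library was 0.453 CPM, for Ifne. Transcripts of these 11 ligands were therefore near the limit of detection in all groups, and interferon genes outside the list were not followed. Of the 6 receptor subunits, 0 were called in any comparison, and between hM4Di and EGFP 3 were above 0 and 3 below, with Ifnar1, a subunit of the type I receptor, at -0.12 ± 0.08 and Ifngr1, of the interferon gamma receptor, at 0.08 ± 0.12 on the log2 scale. Of 6 feedback inhibitors 3 were above 0 and 3 below. A list of 42 other interferon-stimulated genes, 40 of them tested, gave 39 above 0 with hM4Di, against 47.9% of all genes, and a median of 0.42. All hM4Di libraries were above all EGFP libraries for 18 of the 40, against 4.34% of all genes. Without hM4Di 1, 30 of 40 were above 0, against 45.9% of all genes, with a median of 0.17. It too had 0 genes called.

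With hM3Dq the interferon-stimulated genes stayed close to EGFP at 90 min. edgeR called 107 genes, 0.788% of those tested, and 0 of the 47. Of the called genes 103 were higher (0.758%) and 4 lower (0.0294%). At an unadjusted p under 0.05, 0 of the 47 were higher and 1 lower, against 4.34% and 3.59% of all genes, and DESeq2 called 0 of the 47, against 1.55% of the genes it adjusted. The median log2 fold change was 0.04 against 0.00 over all genes, and 31 of the 47 were above 0, against 49% of all genes. The groups did not overlap for 4, of which 3, Oasl2, Ifi35 and Lgals3bp, were above EGFP, against 6.06% of all genes, and 1 was below, against 9.44%. The gene below was Plscr1, at 20.1, 18.9 and 20.6 CPM with hM3Dq and 23.2, 25.5 and 25.5 CPM with EGFP, a log2 fold change of -0.28 ± 0.09 (edgeR adjusted p = 0.320). Ifi35 lay at 79.2, 81.4 and 81.3 CPM against 67.3, 72.6 and 77.6 CPM, or 0.19 ± 0.10 on the log2 scale (adjusted p = 0.702). Dhx58 (0.24 ± 0.20), Trim25 (-0.19 ± 0.17) and Rtp4 (0.12 ± 0.11) overlapped. Gvin1, a very large GTPase, was detected at 1.25 and 1.70 CPM in hM3Dq 1 and 2, at 0.47 CPM in EGFP 2 and listed at 0 in the other 3 libraries of the 2 groups.

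With rM3Ds most of the genes lay slightly below EGFP. edgeR called 2 genes, 0.0147% of those tested, and 0 of the 47. Of the 47, 43 had a log2 fold change below 0 and 4 above, with 45.5% of all genes above, and the median was -0.23 against -0.02. At an unadjusted p under 0.05, 2 were lower and 0 higher, against 1.24% of all genes lower and 3% higher. DESeq2 called 0 of the 47, against 0.397% of the genes it adjusted. The rM3Ds libraries were all above the EGFP libraries for 0 of the 47, against 4.41% of all genes. For 11 of the 47 all were below, against 2.94% of all genes, and these were Irf7, Stat2, Ifit1, Ifit3, Ifit3b, Oasl2, Parp9, Trim25, Trim30a, Bst2 and Sp100. Trim30a, a regulator of innate immune signalling, stood at 57.9, 47.6 and 48.4 CPM with rM3Ds and 93.7, 72.6 and 80.3 CPM with EGFP, a log2 fold change of -0.70 ± 0.31. Bst2 stood at 600.1, 537 and 458 CPM, or -0.32 ± 0.14 against EGFP, and Sp100, a protein of nuclear bodies, at 7.77, 9.99 and 11.4 CPM against 16.1, 12 and 14 CPM, or -0.55 ± 0.27. Parp9 (-0.23 ± 0.10), Trim25 (-0.37 ± 0.17) and Oas1a (-0.39 ± 0.21) were the others with the smallest p-values, and the edgeR adjusted p of all 6 rounded to 1.00. The list was below 0 in each rM3Ds library, also in rM3Ds 1, which did not stand apart, and without EGFP 1, rM3Ds 2 and rM3Ds 3 the median was -0.18. Lgals3bp, a secreted glycoprotein, went with the libraries that stand apart, at 296 and 266 CPM in rM3Ds 2 and 3 and 401 CPM in EGFP 1, against 536 to 811 CPM in the other 9.

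Set against the other receptors, hM4Di shares with the comparison to EGFP its own 3 libraries, so the values stand side by side and are not independent. Between hM4Di and hM3Dq, 109 genes were called (0.802%), 7 of them higher with hM4Di (0.0515%) and the rest lower (0.751%). Of the 47, 1 was called, Plscr1, which was higher. It stood at 31.5, 31.8 and 29.8 CPM with hM4Di and 20.1, 18.9 and 20.6 CPM with hM3Dq, with rM3Ds (26.8, 29.0 and 24.9 CPM) and EGFP between them, so the groups did not overlap. Its log2 fold change was 0.59 ± 0.09 (edgeR adjusted p = 0.00812), and 0.57 ± 0.09 without hM4Di 1 (adjusted p = 0.0221). Without hM3Dq 2 the call was lost (adjusted p = 0.0554). Over the 47 the median was 0.58 against 0.01, with 45 above 0 against 52.8% of all genes, and 0.22 without hM4Di 1. At an unadjusted p under 0.05, 31 were higher and 0 lower, against 3.94% and 7.44% of all genes. The groups did not overlap for 32, all with hM4Di above, against 12.4% of all genes above and 8.57% below. DESeq2 called 10 of the 47, against 3.19% of the genes it adjusted. Tgtp1 (1.17 ± 0.25, adjusted p = 0.0667), Bst2 (0.56 ± 0.14, 0.109), Ifi35 (0.38 ± 0.10, 0.117), Irgm1 (0.58 ± 0.17, 0.172), Rtp4 (0.36 ± 0.11, 0.182) and Dhx58 (0.52 ± 0.20, 0.334) were not called. With hM4Di 1, EGFP 1, rM3Ds 2 and rM3Ds 3 all left out, a choice made after seeing the data, edgeR called 10 of the 47 higher with hM4Di, against 1.31% of all genes. These were Bst2, Ifit3, Ifit3b, Iigp1, Irf7, Isg15, Oas1a, Plscr1, Tgtp1 and Zbp1, with 2 hM4Di and 3 hM3Dq libraries in the fit.

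The distance was widest between hM4Di and rM3Ds. edgeR called 2 genes (0.0147%), 0 of them among the 47. The log2 fold change was above 0 for 46 of the 47, against 51% of all genes, with a median of 0.87 against 0.01, and 0.47 without hM4Di 1. The groups did not overlap for 36 of the 47, all with hM4Di above, against 5.02% of all genes above and 5.78% below. At an unadjusted p under 0.05, 39 were higher and 0 lower, against 3.71% and 6.26%. The 6 genes with the smallest p-values against EGFP had log2 fold changes of 1.59 ± 0.25 (Tgtp1), 1.08 ± 0.20 (Dhx58), 0.99 ± 0.14 (Bst2), 0.94 ± 0.17 (Irgm1), 0.69 ± 0.10 (Ifi35) and 0.60 ± 0.11 (Rtp4), with edgeR adjusted p from 0.0719 to 0.147. Others were larger with a wider error, among them Iigp1 (1.71 ± 0.37, adjusted p = 0.198) and Irf7 (1.54 ± 0.30, adjusted p = 0.155). DESeq2 called 26 of the 47, against 1.43% of the genes it adjusted. Without rM3Ds 1, the rM3Ds library that did not stand apart, edgeR called 392 genes, and 10 of the 47 were higher with hM4Di, against 1.03% of all genes: Bst2, Dhx58, Ifi35, Ifit3, Irf7, Irf9, Irgm1, Lgals3bp, Rtp4 and Tgtp1.

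At 3 days, after the ligand had been washed out, the genes with hM3Dq lay on both sides of mCherry. edgeR called 0 genes (0%), and at an unadjusted p under 0.05, 4 of the 47 were higher and 1 lower, against 4.55% and 7.47% of all genes. DESeq2 called 140 genes (1.08%), among them 3 of the 47, Gvin1, Trim30a and Zbp1. The median log2 fold change was 0.02 against -0.01, with 24 above 0 against 48.8% of all genes. The groups did not overlap for 12, with 7 above mCherry and 5 below, against 9.32% and 16.2% of all genes. Trim30a stood at 14.4, 19.7 and 16.8 CPM with hM3Dq and at 28.1, 25.9 and 34.2 CPM with mCherry, a log2 fold change of -0.77 ± 0.15 (edgeR adjusted p = 0.228). Zbp1 stood at 44.8, 47.8 and 48.7 CPM against 38.4, 33.8 and 31.0 CPM, or 0.48 ± 0.11 (0.228), and neither gene overlapped. Plscr1 was here above its control, at 35.0, 37.0 and 32.7 CPM against 29.9, 30.1 and 27.5 CPM, or 0.29 ± 0.10 (edgeR adjusted p = 0.321). Rtp4 (0.28 ± 0.10, 0.347) and Lgals3bp (0.27 ± 0.12, 0.414) were also higher in every hM3Dq library. Gvin1 stood at 2.83, 4.53 and 1.12 CPM with hM3Dq and at 0 in all 3 mCherry libraries, which is at least 16.5-fold higher than a floor of 3 counts in each mCherry library (edgeR adjusted p = 0.214). With Gvin1 at this bound the median of the 47 was again 0.02.

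Library mCherry 3 was the highest of the 6 for 17 of the 47 genes and the lowest for 15. Bst2 stood at 126 CPM there against 319 and 327 CPM in mCherry 1 and 2, and Isg15 at 56.4 CPM against 128 and 129 CPM. Ifih1 was higher there, at 209.9 CPM against 148 and 153 CPM, as was Samd9l, an antiviral protein that slows translation, at 191 CPM against 125 and 127 CPM. The ratio of mCherry 3 to mCherry 1 and 2 ran with transcript length, with a Spearman correlation across genes of 0.68 over 45 of the 47 and 0.40 over 12120 genes, and the part of length in the 3-day comparison was not tested. Without mCherry 3 edgeR called 1257 genes, 9.72% of those tested. Of the 47, Zbp1 (0.41 ± 0.07, adjusted p = 0.00362), Rtp4 (0.21 ± 0.06, 0.0495), Eif2ak2 (0.17 ± 0.05, 0.0497) and Gvin1 (0.0474) were then called higher, against 4.15% of all genes, and Trim30a (-0.65 ± 0.11, 0.00270) lower, against 5.58%.

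The effect of hM3Dq at 3 days, taken against mCherry, was set against its effect at 90 min, taken against EGFP. edgeR called 53 genes (0.396%), 0 of them among the 47. The smallest adjusted p was that of Plscr1, whose effect was higher at 3 days by 0.57 ± 0.13 on the log2 scale (edgeR adjusted p = 0.104). DESeq2 called it (adjusted p = 0.0105), as did edgeR without EGFP 1 (0.0470). For the other named genes the difference was -0.65 ± 0.20 for Trim30a, 0.46 ± 0.15 for Zbp1, 0.20 ± 0.19 for Trim25 and 0.17 ± 0.14 for Rtp4, and it was within 0.02 of 0 for Ifi35, Dhx58 and Lgals3bp. Gvin1 was not called (edgeR adjusted p = 0.603), and no fold is given for it because most of its control libraries are at 0. Levels in the controls also differed between the times, with Irf7 at 152 to 178 CPM with EGFP at 90 min and 29.5 to 41.2 CPM with mCherry at 3 days, Trim30a at 72.6 to 93.7 and 25.9 to 34.2 CPM, and Irf1 at 29.8 to 40.7 and 49.9 to 62.6 CPM. These were separate tables with different control plasmids, so time, plasmid and culture cannot be told apart and no test was made.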

How the data were processed

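Poly-A enriched RNA was sequenced from 18 libraries in 6 groups of 3. The authors deposited estimated counts for each gene, without normalisation and partly not whole numbers. Salmon 1.8.0, fastp 0.23.4 and the build mm39 are named in the submitters' processing notes. The step from transcripts to genes is not given in the sources used here, so close copies and overlapping genes are uncertain.

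Estimated counts were rounded and tested with edgeR 4.0.16 (R 4.3.3): quasi-likelihood test, robust dispersion, TMM normalisation, default low-count filter, Benjamini-Hochberg adjustment over all genes tested, calls at an adjusted p below 0.05. The 4 groups at 90 min were fitted together, the 3-day groups alone, and the difference between times as an interaction. SE is the log2 fold change divided by the square root of the test's F statistic. DESeq2 1.42.0, RLE factors, no filter, a replicate block, smaller fits and fits without libraries were alternatives. The fits were tested on simulated data. Members and lists were chosen with earlier results of these data known. Genes named with fold changes were those called and the 6 with the smallest p against each control. Others were picked after their values were seen, for their size or for how they moved without hM4Di 1. Ifnar1 and Ifngr1 were given as examples of the receptors. Promoters come from RefSeq (GRCm38.p6), and lengths from GENCODE M21, matched by symbol; both differ in build from the files, and no coordinate was converted.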

Additional observations from a re-analysis of the deposited data

Results flagged for a closer look

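The fold change of Plscr1 with hM3Dq had opposite signs at the 2 times, and edgeR called it at neither. At 90 min all 3 hM3Dq libraries lay below all EGFP libraries, as they did for 9.44% of all genes. At 3 days all 3 lay above all mCherry libraries, as they did for 9.32% of all genes. The 2 fold changes differed by 0.57 on the log2 scale. The interaction test did not pass (edgeR adjusted p = 0.104).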

How the results depend on the processing

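Of the 47 genes, 0 were called against EGFP or mCherry under RLE normalisation, without the filter or under the replicate block. The median against EGFP stayed at 0.57 or above for hM4Di, between 0.04 and 0.06 for hM3Dq and at -0.24 to -0.22 for rM3Ds under these 3 settings.

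DESeq2 called 19 genes for hM4Di, 226 for hM3Dq and 61 for rM3Ds against EGFP, 391 for hM4Di against hM3Dq, 209 for hM4Di against rM3Ds, 140 at 3 days and 195 between times. Of the 47 it called 5, 0, 0, 10, 26, 3 and 1 in that order. The shares of all genes it adjusted were 0.19%, 1.55%, 0.397%, 3.19%, 1.43%, 1.08% and 1.46%. The replicate numbers were entered as a block although they pair libraries by number only: the correlation of deviations was above 0.1 in 7 of 18 pairs at 90 min (-0.79 to 0.34) and in 0 of 3 at 3 days (0.02 to 0.07). With the replicate block 66 genes were called for hM3Dq and 4 for rM3Ds against EGFP, 61 for hM4Di against hM3Dq, 0 for hM4Di against rM3Ds and 39 between times, and the block changed no call among the 47. Fitted with only the groups compared, rM3Ds against EGFP and hM4Di against rM3Ds gave 0 genes. Without the filter 1 gene was called at 3 days.

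Without EGFP 1, rM3Ds 2 and rM3Ds 3, 0 genes were called for rM3Ds against EGFP and for hM4Di against rM3Ds. The calls were 300 for hM4Di against hM3Dq with 2 of the 47, Plscr1 and Tgtp1, and 170 between times with 1, Plscr1. These counts of 2 and 1 are too small to be read as a trait of the list. With hM4Di 1 left out as well, a choice made with the data seen, the calls were 2 genes for hM4Di, 304 for hM3Dq and 7 for rM3Ds against EGFP. For hM4Di against hM3Dq they were 1033, 7.47% of the genes tested, with 10 of the 47. The medians of the 47 were then 0.24 for hM4Di against EGFP, 0.22 against hM3Dq and 0.42 against rM3Ds.

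Leaving out 1 library at a time, the median of the 47 ranged from 0.23 to 0.82 for hM4Di against EGFP, from 0.22 to 0.72 against hM3Dq and from 0.47 to 1.05 against rM3Ds, in each case lowest without hM4Di 1, and from -0.0685 to 0.0258 between times. The number of genes called ranged from 50 to 123 for hM3Dq and from 2 to 115 for rM3Ds against EGFP, from 38 to 106 for hM4Di against hM3Dq, from 0 to 392 for hM4Di against rM3Ds, from 0 to 1257 at 3 days and from 28 to 170 between times. Of the 47, 0 to 1 were called for hM4Di against hM3Dq and 0 to 1 between times. With all libraries the shares of all genes called there were 0.802% and 0.396%. For hM4Di against rM3Ds 0 to 10 of the 47 were called, with 10 without rM3Ds 1, against 2.83% of all genes. At 3 days 0 to 5 were called, with 5 without mCherry 3, against 9.72% of all genes. Where a group was left with 2 libraries, they were assumed to vary like the rest. The cause of these shifts was not tested.

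Without hM4Di 1, 10 of the 47 were below 0 against EGFP, among them Gbp7 at -0.04 (0.62 with all libraries), Ifit2 at -0.03 (0.48), Oas2 at -0.05 (0.40) and Stat2 at -0.17 (0.28), and Ifi27 turned from -0.07 to 0.26. Among the genes chosen by p-value, in the comparisons where their fold changes are given, the sign changed for 4. Trim25 for hM3Dq against EGFP was 0.0049 without EGFP 1, the highest of its range from -0.29. Between times Dhx58 was -0.000749 under RLE normalisation, -4.6e-05 without the filter, -1e-06 under DESeq2 and -0.0940 to 0.12 with a library left out. Ifi35 was 0.024 under the replicate block, 0.0374 without the 3 libraries that stand apart and -0.18 to 0.14 with a library left out, and Lgals3bp was -0.0902 to 0.15. Genes near the floor of 3 counts, Gvin1 and Mx1, are the least precise of the 47.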
